A study of Homo sapiens with 4 samples.

Results

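This account concerns whether the effect of PHF19 overexpression on open chromatin was the same in a pair of AMO1 myeloma libraries whose titles carry the prefix IFN as in the pair without it. Its members are the 34809 regions of chromosomes 1 to 22 with an ATAC-seq peak in all 4 libraries, out of 71853 merged regions (48.4%), and no measured change was used to choose them. The quantity followed is the interaction, the log2 height ratio of IFNAMO1 P19 OE over IFNAMO1 ctrl minus that of AMO1 P19 OE over AMO1 ctrl, each ratio centred on its own median. An interaction of 0 means that PHF19 and the prefix combined additively on the log2 scale, and 1 means that the PHF19 ratio was 2-fold higher in the IFN-prefixed pair.

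AMO1 is a long-established line of malignant plasma cells, the cells of multiple myeloma. IFNAMO1 P19 OE and AMO1 P19 OE were transfected with a PCDH plasmid that carries PHF19, and IFNAMO1 ctrl and AMO1 ctrl with the empty PCDH plasmid. The labels record no treatment for the prefix IFN, and they describe all 4 samples as the same line in the same medium, so it is used here only as a name. Each group is 1 library, with no replicate, clone or passage recorded. The differences below therefore carry an error from counting alone, and no test of the conditions was possible.

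ATAC-seq uses the Tn5 transposase, which cuts and tags DNA where chromatin is open, and the height of a peak follows how often a site was cut. In a bulk library, a site open in fewer cells and a site less open in every cell cannot be told apart. PHF19 is a Polycomb-like protein that brings Polycomb repressive complex 2, the histone H3 methyltransferase that keeps developmental genes such as the HOX clusters silent, to CpG-rich DNA. Type I and type II interferons act through JAK kinases and STAT transcription factors on interferon-stimulated genes.

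Height is the largest pileup of fragments in a region divided by the fragments of the library, written per M (1000000 fragments). IFNAMO1 P19 OE held 16.4 M fragments, IFNAMO1 ctrl 65.9 M, AMO1 P19 OE 18.2 M and AMO1 ctrl 27.4 M, and the header of IFNAMO1 ctrl points to another project folder than the headers of the other 3. The deepest library is thus the denominator of the IFN-prefixed ratio throughout. Median heights in the shared regions were 2.81, 2.72, 2.58 and 2.78 per M in the same order, from median pileups of 46, 179, 47 and 76 fragments. The median log2 ratio that centring removed was 0.14 in the IFN-prefixed pair and -0.11 in the unprefixed pair. Plasma cell markers had a shared peak at the end of 10 of 10 genes, beside 1 of 5 B cell genes (CIITA), 2 of 7 T and NK cell genes, 1 of 6 myeloid genes and 5 of 6 stromal and epithelial genes. PAX5, MS4A1, CD22, CD3D, CD14, LYZ and MPO were among those without one.

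PHF19 itself had no region with an interaction past 2-fold. The 4 shared regions within the gene (chr9:120855651-120904128) had interactions of -0.14, -0.42, 0.07 and 0.00, and each counting interval included 0. The second of these, at chr9:120875707-120878708, had 6.66 per M in IFNAMO1 P19 OE, 7.27 in IFNAMO1 ctrl, 9.11 in AMO1 P19 OE and 8.88 in AMO1 ctrl, with IFNAMO1 P19 OE lowest. A narrow peak at chr9:120857950-120858284 was listed in both PHF19 libraries alone, at 7.33 per M in IFNAMO1 P19 OE and 7.90 in AMO1 P19 OE, so it has no interaction value.

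Among the gene-end regions named further on, the promoters of the 3 gene-start regions of each direction whose exact counting interval stayed farthest from 0 are shown with that of HOXA10, a Polycomb target whose start region passed 2-fold lower. Each is the 250 bases before the RefSeq start nearest to the middle summit (GRCh38.p14), 5′ to 3′, with CG dinucleotides in capitals, because PHF19 is known to bind CpG-rich DNA.
Higher interaction, CCDC117 (chr22:28772445-28772694, plus strand), RGS10 (chr10:119542720-119542969, minus strand) and SDC1 (chr2:20225476-20225725, minus strand):
CCDC117: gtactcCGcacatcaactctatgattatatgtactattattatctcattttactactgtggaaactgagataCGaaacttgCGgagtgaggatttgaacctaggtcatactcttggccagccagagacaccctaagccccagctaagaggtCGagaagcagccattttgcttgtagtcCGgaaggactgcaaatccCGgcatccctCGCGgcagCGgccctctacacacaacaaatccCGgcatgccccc
RGS10: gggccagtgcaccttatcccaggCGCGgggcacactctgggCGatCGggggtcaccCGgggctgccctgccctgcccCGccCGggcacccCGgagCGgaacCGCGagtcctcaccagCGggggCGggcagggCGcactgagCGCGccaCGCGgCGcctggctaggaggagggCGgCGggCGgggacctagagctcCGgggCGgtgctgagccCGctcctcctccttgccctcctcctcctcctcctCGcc
SDC1: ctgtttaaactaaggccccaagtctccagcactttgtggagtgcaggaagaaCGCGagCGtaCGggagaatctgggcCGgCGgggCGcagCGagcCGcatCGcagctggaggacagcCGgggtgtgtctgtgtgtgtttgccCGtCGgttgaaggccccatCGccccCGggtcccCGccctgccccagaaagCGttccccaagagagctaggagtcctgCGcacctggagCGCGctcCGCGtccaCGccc
Lower interaction, GJC3 (chr7:99929621-99929870, minus strand), GNG10 (chr9:111661355-111661604, plus strand), XPNPEP1 (chr10:109923512-109923761, minus strand) and HOXA10 (chr7:27179862-27180111, minus strand):
GJC3: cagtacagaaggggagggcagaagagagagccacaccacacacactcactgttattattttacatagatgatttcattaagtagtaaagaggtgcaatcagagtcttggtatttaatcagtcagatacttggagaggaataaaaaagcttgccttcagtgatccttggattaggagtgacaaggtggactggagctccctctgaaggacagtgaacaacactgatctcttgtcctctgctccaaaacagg
GNG10: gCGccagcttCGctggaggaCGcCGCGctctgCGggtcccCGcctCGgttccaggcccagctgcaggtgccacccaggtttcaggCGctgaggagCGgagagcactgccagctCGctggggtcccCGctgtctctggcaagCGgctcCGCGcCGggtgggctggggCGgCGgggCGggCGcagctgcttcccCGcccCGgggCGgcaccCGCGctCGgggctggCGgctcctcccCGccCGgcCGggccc
XPNPEP1: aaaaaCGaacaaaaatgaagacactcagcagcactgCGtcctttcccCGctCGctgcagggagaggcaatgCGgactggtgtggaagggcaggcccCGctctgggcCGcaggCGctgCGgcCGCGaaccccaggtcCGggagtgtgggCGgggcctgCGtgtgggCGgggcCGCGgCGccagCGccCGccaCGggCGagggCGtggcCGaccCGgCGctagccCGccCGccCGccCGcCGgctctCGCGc
HOXA10: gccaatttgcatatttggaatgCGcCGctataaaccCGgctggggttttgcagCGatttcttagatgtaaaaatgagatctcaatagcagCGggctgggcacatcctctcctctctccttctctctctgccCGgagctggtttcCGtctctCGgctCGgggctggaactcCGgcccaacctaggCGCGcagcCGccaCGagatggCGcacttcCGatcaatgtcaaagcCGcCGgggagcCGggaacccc
The CG counts were 10 for CCDC117, 26 for RGS10 and 23 for SDC1, against 0 for GJC3, 30 for GNG10, 33 for XPNPEP1 and 19 for HOXA10. Both directions thus held CG-poor and CG-rich promoters.

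Over all regions together, the spread of the interaction was about as large as counting error. The interaction passed 2-fold higher in 282 of 34809 regions (0.81%) and 2-fold lower in 884 (2.54%), 1166 in either direction (3.35%). It lay within 0.5 of 0 on the log2 scale in 79.9% of regions. Its robust standard deviation across regions was 0.364, beside a median counting error of 0.365. The 95% counting interval excluded 0 in 7.27% of regions. The PHF19 ratios of the pairs had a Pearson correlation of 0.63 and a Spearman correlation of 0.57 across the 34809 regions, which share libraries and depth, and the same sign in 69.3%. Without centring the split turned round, with 819 regions past 2-fold higher and 332 lower, since the medians of the pairs differ by 0.25 on the log2 scale. It was near even with the median of 20 height classes removed, at 478 higher and 546 lower, and after quantile normalization, at 527 higher and 613 lower.

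**Figure D1:**
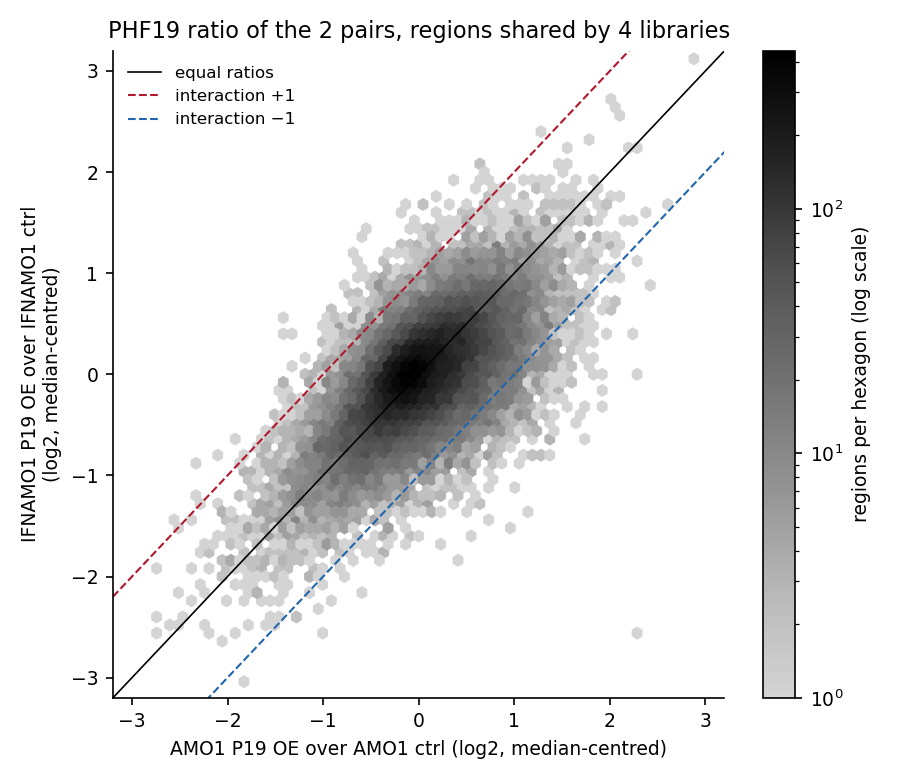
Log2 height ratio of IFNAMO1 P19 OE over IFNAMO1 ctrl (vertical) against that of AMO1 P19 OE over AMO1 ctrl (horizontal) for 34809 shared regions, each centred on its median, with hexagons shaded by the number of regions. The cloud follows the line of equal ratios, and 282 regions lie above the upper dashed line and 884 below the lower one.

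The same 4 libraries give 3 contrasts with equal counting error. One is PHF19 averaged over both pairs, another the prefix averaged over both vectors, and the last the interaction divided by 2. Robust standard deviations were 0.357 for PHF19, 0.227 for the prefix and 0.182 for the interaction divided by 2, beside a median counting error of 0.182. Counting intervals excluded 0 in 35.1% of regions for PHF19 and in 14.8% for the prefix. Thus the regions differed in their mean PHF19 ratio by more than counting error, and in the interaction by about as much as counting error. Each pair alone passed 2-fold in either direction in 5.17% of regions with the prefix and in 6.07% without.

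Regions were then put into 10 classes of mean height, class 1 lowest. In class 1 the spread of the interaction divided by 2 was 0.297, against a counting error of 0.342. In class 10 it was 0.089, against 0.083. The match over all regions thus joined a spread below counting error in the lowest class and one above it in the highest. A peak was required in all 4 libraries, so the match cannot decide whether low regions were additive. The median interaction moved with height, being -0.13 in class 1, -0.16 in class 2, -0.09 in class 5, 0.05 in class 8 and 0.13 in class 10. All departures past 2-fold lay in classes 1 to 8. Class 1 held 114 higher and 289 lower of them, and class 8 held 1 higher and 0 lower. In class 10 the counting interval excluded 0 in 16.8% of regions, the largest share of any class, beside 3.27% in class 1. Class 10 had 0 regions past 2-fold. Depth, peak calling and the project folder move with the libraries, and their part in the relation to height was not tested.

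**Figure D2:**
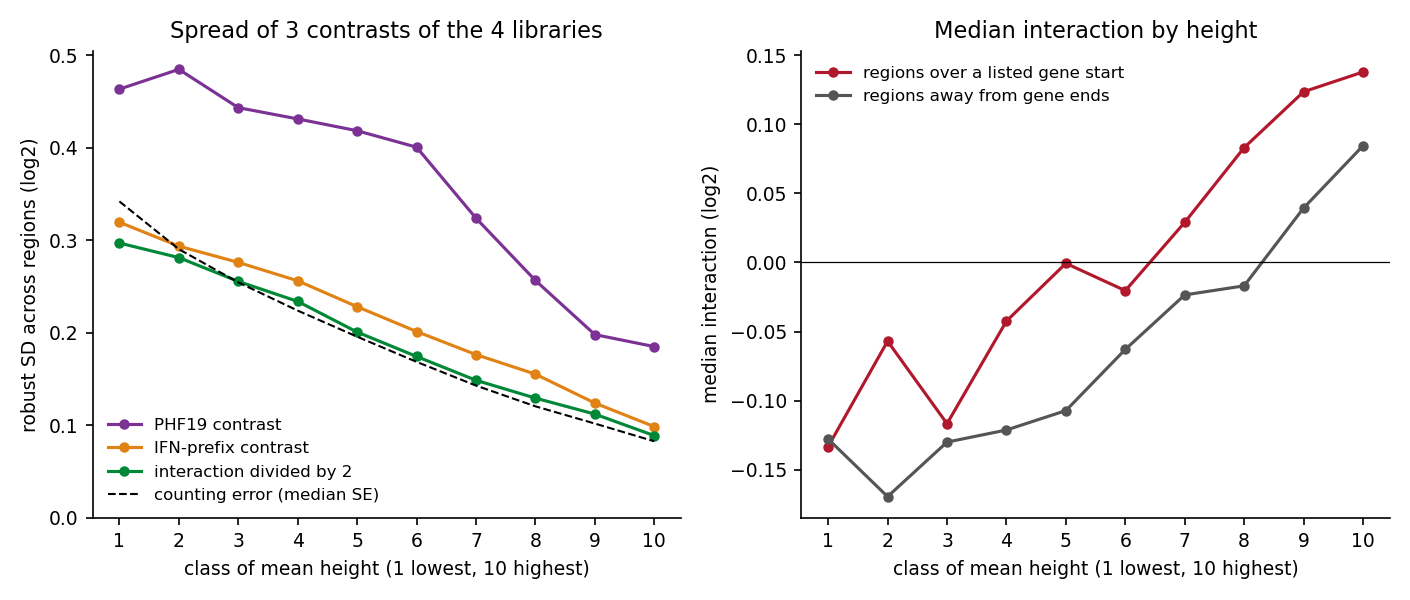
Left, robust standard deviation across regions (log2) of the PHF19 contrast, the IFN-prefix contrast and the interaction divided by 2 in 10 classes of mean height, with the counting error dashed. Right, median interaction (log2) in the same classes for regions over a listed gene start and for regions away from gene ends. In the left panel the interaction lies below the counting error in class 1 (0.297 against 0.342) and above it in class 10 (0.089 against 0.083). In the right panel its median is higher at gene starts than elsewhere in classes 2 to 10.

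Gene starts stood above the rest of the genome. The 8500 regions over a RefSeq gene start had a median interaction of 0.10 on the log2 scale, with 65.9% above 0 and a median height of 7.40 per M. The 22119 regions away from gene ends had a median of -0.07, with 42.8% above 0 and a median height of 1.83 per M. At gene starts the median PHF19 ratio was 0.03 in the IFN-prefixed pair and -0.07 in the unprefixed pair. Read the other way, the prefix ratio there was -0.06 with PHF19 and -0.18 with empty vector. At like height the difference was smaller, with medians of 0.08 at gene starts and -0.02 away from gene ends in class 8, and 0.14 and 0.08 in class 10. With the median of 20 height classes removed, the medians were 0.02 at gene starts and -0.02 elsewhere. Departures past 2-fold at gene starts numbered 11 higher (0.129%) and 26 lower (0.306%), beside 245 higher (1.11%) and 786 lower (3.55%) away from gene ends. Starts on chromosome 8 were not used here, and the 1527 regions of that chromosome had a median of -0.03.

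Most departures came from 1 pair. Counting a ratio as moved past 1.5-fold, 145 of the 282 higher departures were higher in the IFN-prefixed pair alone and 83 were lower in the unprefixed pair alone. In 19 the pairs went opposite ways, and in 16 neither passed 1.5-fold. Of the 884 lower departures, 503 were higher in the unprefixed pair alone, 255 were lower in the IFN-prefixed pair alone and 69 went opposite ways. The library farthest from the mean of the other 3 was IFNAMO1 P19 OE, above them, in 138 higher departures (48.9%), and AMO1 P19 OE, below them, in 81 (28.7%). Over all shared regions those shares were 13.4% and 11.5%. Among lower departures it was AMO1 P19 OE, above, in 306 (34.6%), AMO1 ctrl, below, in 295 (33.4%), and IFNAMO1 P19 OE, below, in 198 (22.4%). Over all shared regions these were 12.4%, 10.9% and 10.9%. IFNAMO1 ctrl, the deepest, was farthest, below, in 49 higher departures (17.4%) and, above, in 85 lower ones (9.62%). Its shares over all shared regions were 18.6% below and 5.88% above. The direction of a departure fixes the side on which each library can be farthest. Shares of departures thus spread over fewer outcomes than those of all regions, and exceed them in part by construction.

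Most of these regions had low counts. Fewer than 20 fragments in at least 1 library held for 81.6% of higher and 75.2% of lower departures, beside 22.1% of all shared regions. The most negative interaction, -4.90, lay near the end of chromosome 16 at chr16:10303-11347, with pileups of 8, 176, 61 and 20 fragments in IFNAMO1 P19 OE, IFNAMO1 ctrl, AMO1 P19 OE and AMO1 ctrl and tallest summits up to 382 bp apart. The highest, 1.9575, lay at chr22:32630899-32631695 with pileups of 29, 42, 12 and 30. With at least 20 fragments in every library, 27113 regions remained, of which 52 passed 2-fold higher (0.192%) and 219 lower (0.808%).

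Opposite ratios in the pairs were rare. Both counting intervals excluded 0 in the same direction in 4335 regions (12.5%), 1762 higher with PHF19 and 2573 lower. They excluded 0 in opposite directions in 61 regions (0.175%). In 45 of these the ratio was higher with PHF19 in the IFN-prefixed pair and lower in the unprefixed pair. Of the 61, 36 lay over a gene start (0.424% of gene-start regions), where 24.4% of all shared regions lie. Gene-start regions had a median height of 7.40 per M, beside 2.68 over all shared regions, and higher counts give narrower intervals. The median interaction also moved with height, and neither the split nor the share was compared at like height.

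A region counted as a gene end where it came within 1000 bp of the start or the far end of any protein-coding gene. Of 10484, 25 passed 2-fold higher (0.238%) and 57 lower (0.544%). Among the 10023 of them with at least 20 fragments everywhere, 10 were higher (0.0998%) and 19 lower (0.19%). The named regions of each direction are the 12 with at least 20 fragments in every library whose 95% counting interval, by the normal approximation, ended farthest from 0 on the near side. The intervals printed are exact, so their order differs in places. This choice favours large interactions and intervals that exclude 0. The intervals of these regions are therefore no separate evidence of a departure, nor are those of the regions named by the same rule away from gene ends.

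CCDC117 led the higher gene ends. Its start region (chr22:28772558-28774135) had heights of 3.48 per M in IFNAMO1 P19 OE, 2.31 in IFNAMO1 ctrl, 2.03 in AMO1 P19 OE and 3.91 in AMO1 ctrl. The PHF19 ratio was 0.46 in the IFN-prefixed pair (-0.009 to 0.904, which includes 0) and -0.83 in the unprefixed pair (-1.41 to -0.28). The interaction was 1.29 (95% counting interval 0.55 to 2.03), and 0.49 with fold enrichment over the local background as height. AMO1 ctrl and IFNAMO1 P19 OE were the high libraries. The region 631 bp from the start of ZSCAN10, a zinc finger transcription factor, had 2.63, 1.49, 1.54 and 2.56 per M and an interaction of 1.30 (0.44 to 2.18).

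RGS10, a regulator of G protein signalling, had start-region heights of 10.2 and 5.11 per M in IFNAMO1 P19 OE and IFNAMO1 ctrl, and 7.19 and 7.93 in AMO1 P19 OE and AMO1 ctrl. Here the departure lay in the IFN-prefixed pair, with a PHF19 ratio of 0.86 beside -0.03 in the unprefixed pair, and the interaction was 0.89 (0.46 to 1.31). SPINK2, a serine protease inhibitor, was likewise highest in IFNAMO1 P19 OE, with 3.36, 1.47, 1.54 and 1.90 per M and an interaction of 1.24 (0.38 to 2.13). SAMD14 had 5.56, 3.31, 3.57 and 5.01 per M at one end and an interaction of 0.99 (0.41 to 1.57).

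SDC1 encodes syndecan-1, also called CD138, the surface marker of plasma cells. Its start region was the most deeply counted of the named ones, with pileups of 5150, 10412, 5373 and 6744 fragments, or 314 per M in IFNAMO1 P19 OE, 158 in IFNAMO1 ctrl, 295 in AMO1 P19 OE and 246 in AMO1 ctrl. PHF19 libraries were higher in both pairs, by 0.86 with the prefix and 0.37 without, and IFNAMO1 ctrl was low against the other 3. The interaction was 0.48 (0.41 to 0.55), and -0.01 after quantile normalization, which was the 1 reversal among 714 values that named regions took under the alternatives. Fold enrichment over the local background was 6.71, 5.31, 6.49 and 6.23 in the same order of libraries. With it as height the SDC1 interaction was 0.26, outside the counting interval. SDC1 lies in a stretch of chromosome 2 that held 15 of the 50 tallest regions, and the part of that stretch in its height was not tested.

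The other named higher regions lay over gene starts. SNX18, a sorting nexin, had an interaction of 0.78, PPP2R5C, a regulatory subunit of the phosphatase PP2A, 0.89, and TJAP1, a tight junction-associated protein, 0.89. The shared start of ATG13, part of the complex that starts autophagy, and HARBI1 stood at 0.80. That of COX4I1, a cytochrome c oxidase subunit, and EMC8 stood at 0.78. In PPP2R5C, for example, heights were 6.47 and 4.66 per M in the IFN-prefixed pair with PHF19 and with empty vector, against 4.50 and 7.16 in the unprefixed pair. In PPP2R5C, TJAP1 and the COX4I1 region both pair intervals excluded 0, on opposite sides.

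**Figure D3:**
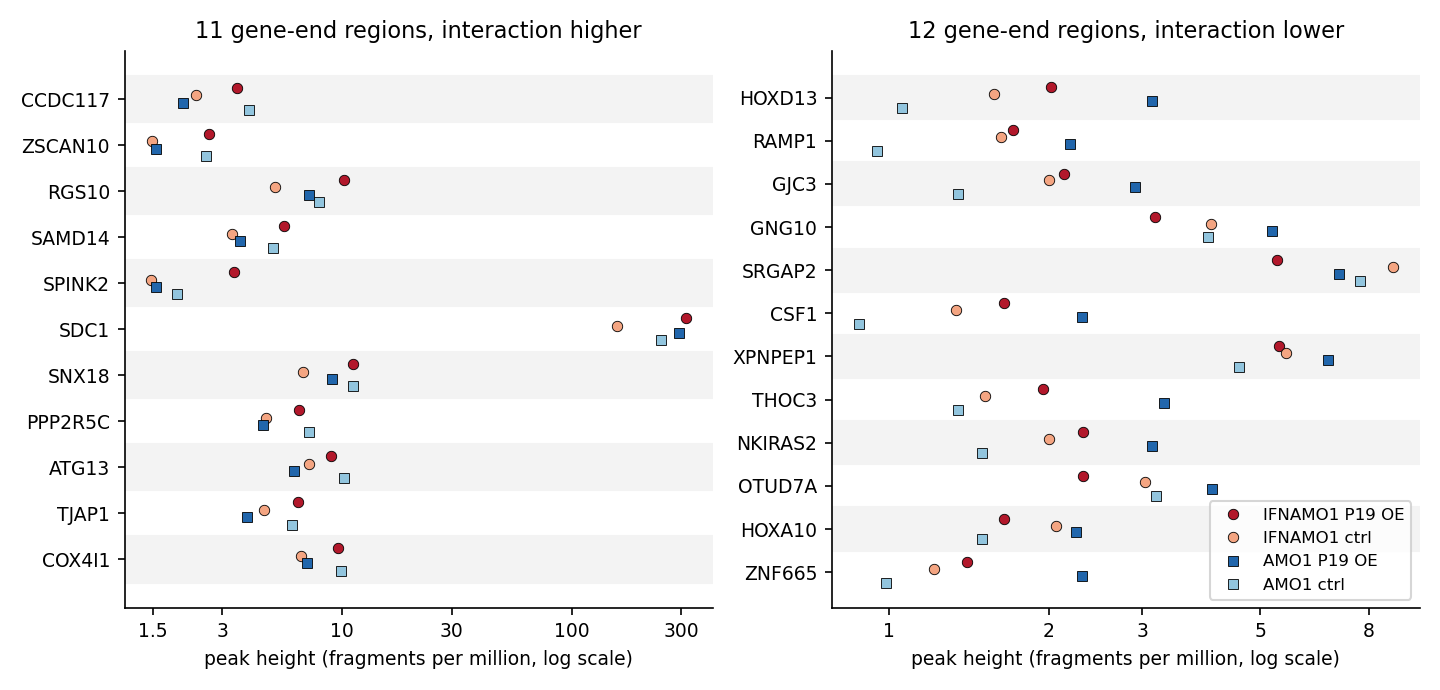
Peak height (fragments per M, log axis) in IFNAMO1 P19 OE, IFNAMO1 ctrl, AMO1 P19 OE and AMO1 ctrl for 11 higher and 12 lower named gene-end regions, 1 point per library and no replicates. SDC1 stands apart at 158 to 314 per M, and in most lower regions AMO1 P19 OE is the highest and AMO1 ctrl the lowest of the 4.

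HOXD13, a homeobox gene of limb development, led the lower gene ends. The region (chr2:176088104-176089046) overlaps the gene 3675 bp from its listed start and had 2.02 per M in IFNAMO1 P19 OE, 1.58 in IFNAMO1 ctrl, 3.13 in AMO1 P19 OE and 1.06 in AMO1 ctrl. The PHF19 ratio was 0.22 with the prefix and 1.68 without, and the interaction -1.46 (-2.38 to -0.54). The tallest region at the ends of HOXD13 was another, with an interaction of 0.02, so the departure belonged to a weaker site of the gene.

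RAMP1, an accessory protein of the calcitonin receptor-like receptor, had 1.71, 1.62, 2.19 and 0.95 per M in IFNAMO1 P19 OE, IFNAMO1 ctrl, AMO1 P19 OE and AMO1 ctrl. Its interaction was -1.39 (-2.39 to -0.38). GJC3, a connexin, had 2.14, 2.00, 2.91 and 1.35 per M over its CG-free promoter shown above and an interaction of -1.26 (-2.13 to -0.40). In both genes the IFN-prefixed libraries were close to each other, while AMO1 P19 OE exceeded AMO1 ctrl. CSF1, the macrophage colony-stimulating factor, had the same order, with 1.65, 1.34, 2.30 and 0.88 per M and an interaction of -1.34 (-2.38 to -0.32).

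GNG10, a G protein gamma subunit, was lower with PHF19 in the IFN-prefixed pair (3.18 and 4.04 per M) and higher in the unprefixed pair (5.27 and 3.98 per M). Its interaction was -1.002 (-1.62 to -0.39), and both pair intervals excluded 0. OTUD7A, a deubiquitinase, went the same way with 2.32 and 3.03 per M in the IFN-prefixed pair and 4.06 and 3.18 in the unprefixed pair, and an interaction of -0.99 (-1.71 to -0.29). The start of XPNPEP1, a cytosolic aminopeptidase, stood at -0.85, and the far ends of NKIRAS2 and ZNF385C at -1.10.

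The region over the start of HOXA10 and near the far end of HOXA11, homeobox genes and textbook Polycomb targets, had 1.65, 2.06, 2.25 and 1.498 per M and an interaction of -1.16 (-2.09 to -0.24). One end of ZNF665, a zinc finger gene, stood at -1.27. The region at the start side of SRGAP2, inside FAM72A (-0.84), and that of THOC3 (-1.17) belong to genes with near-identical copies, where reads may be split, and are uncertain. Of the 12 named lower regions, AMO1 P19 OE or AMO1 ctrl was the farthest library in all except the SRGAP2 one.

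Away from gene ends, the region inside ASAP2 (chr2:9370694-9371768), an Arf GTPase-activating protein, had 8.12 per M in IFNAMO1 P19 OE, 3.69 in IFNAMO1 ctrl, 2.58 in AMO1 P19 OE and 4.31 in AMO1 ctrl. IFNAMO1 P19 OE stood high and the interaction was 1.63 (1.03 to 2.24), with tallest summits up to 448 bp apart. Regions inside PAN3, of a poly(A) deadenylase complex, and CIMAP1D had interactions of 1.41 and 1.05. Regions 31163 bp from MYH9, a nonmuscle myosin, 30310 bp from VEGFA, the vascular growth factor, and 82350 bp from SLC6A6, the taurine transporter, had 1.37, 1.39 and 1.29.

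The lowest of the named regions lay in the T cell receptor gamma locus over the TRGV1 segment (chr7:38367531-38368531), at 4.15, 2.84, 3.51 and 0.80 per M. AMO1 ctrl stood low, the interaction was -1.83 (-2.70 to -0.98), and tallest summits were up to 616 bp apart. Regions inside LZTFL1, a ciliary trafficking protein, inside NCALD, a neuronal calcium sensor, and inside TPCN2, an endolysosomal channel, had -1.61, -1.495 and -1.55. Those near AAK1, an endocytic kinase, and near BRD3, a BET bromodomain protein, had -1.59 and -1.52. In LZTFL1 the height was 1.47 per M in IFNAMO1 P19 OE against 2.94 in IFNAMO1 ctrl, with 2.74 in AMO1 P19 OE and 2.16 in AMO1 ctrl.

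Gene lists were read through the tallest gene-end region of each gene. Over all 9739 such regions the median interaction was 0.10 on the log2 scale, from 0.05 in the IFN-prefixed pair and -0.05 in the unprefixed pair, with 65.1% above 0 and 20 higher (0.205%) and 44 lower (0.452%) past 2-fold, 0.657% in either direction. Not every gene of a list had a shared region, as with 40 of 57 interferon-stimulated genes and 31 of 91 Polycomb targets. The lists are described beside these values, and nothing particular to a list is read from them.

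Interferon-stimulated genes had a median interaction of 0.14 over 39 regions, with 27 above 0 and none past 2-fold. Their PHF19 ratio was 0.11 with the prefix and -0.05 without. The highest, the shared start of PARP9 and DTX3L, partners in the antiviral response, had 8.43 per M in IFNAMO1 P19 OE, 5.66 in IFNAMO1 ctrl, 4.22 in AMO1 P19 OE and 4.71 in AMO1 ctrl, and an interaction of 0.48 (-0.034 to 0.999). The lowest, the start of the interferon-induced GTPase gene GBP4, had 2.63, 1.64, 1.98 and 0.84 per M and -0.81 (-1.79 to 0.17), and both pairs were higher with PHF19. The median prefix ratio of the list was 0.15 with PHF19 and 0.01 with empty vector, beside -0.05 and -0.18 over all gene ends.

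Interferon receptors and signalling genes had a median of 0.17, with 21 of 27 regions above 0. IRF2, a repressor of interferon-responsive promoters, was highest at 0.44 (0.07 to 0.81), with 10.7 and 9.10 per M in the IFN-prefixed pair and 9.16 and 12.5 in the unprefixed pair. STING1, the cytosolic DNA sensing adaptor, was lowest at -0.41 (-0.92 to 0.09). MHC class I genes had a median of 0.08, which was -0.05 with height classes removed and after quantile normalization, and MHC class II genes 0.02, which changed sign in 5 of the 9 alternatives that keep centring. In class II, HLA-DMB stood at -0.63 (-1.09 to -0.16), with 6.66 per M in IFNAMO1 P19 OE, 6.62 in IFNAMO1 ctrl, 7.57 in AMO1 P19 OE and 5.81 in AMO1 ctrl.

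Polycomb complex genes had a median of 0.10 over 30 regions, equal to that of all gene ends. PCGF6, a subunit of variant Polycomb repressive complex 1, was highest at 0.60 (-0.06 to 1.26) and RYBP, another such subunit, lowest at -0.55 (-1.25 to 0.14). Among genes of Polycomb repressive complex 2, named for that role, EZH2, the catalytic subunit, stood at 0.16, EED at 0.51, SUZ12 at -0.31, and the PHF19 relatives MTF2 and PHF1 at 0.04 and 0.05. No member passed 2-fold.

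Polycomb target developmental genes had a higher PHF19 ratio than gene ends at large in both pairs, as did myeloid markers. The median PHF19 ratio of the Polycomb targets was 0.13 with the prefix and 0.31 without, beside 0.05 and -0.05 over all gene ends. That of myeloid markers was 0.22 and 0.32 over 5 regions. The median height of the Polycomb targets was 3.87 per M, beside 7.09 over all gene ends, and the ratios were not compared at like height. The median interaction of the Polycomb targets was -0.01 over 29 regions, with 14 above 0. Its sign changed in 2 of the 9 alternatives that keep centring, and it was 0.24 without centring. One region, that of HOXA10 and HOXA11, passed 2-fold lower (background 0.452%). PAX2, a kidney and eye developmental factor, was the highest at 0.78 (0.15 to 1.41), with 5.13 per M in IFNAMO1 P19 OE, 2.34 in IFNAMO1 ctrl, 3.57 in AMO1 P19 OE and 3.33 in AMO1 ctrl. IFNAMO1 P19 OE was high and IFNAMO1 ctrl low at that far end of the gene.

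Plasma cell identity genes had a median interaction of 0.11 over 21 regions, or -0.01 after quantile normalization. Their PHF19 ratio was -0.28 with the prefix and -0.19 without. SDC1 was highest and PRDM1, the plasma cell regulator Blimp-1, lowest at -0.77 (-1.92 to 0.37). IRF4, on which myeloma cells depend, had 12.03 per M in IFNAMO1 P19 OE, 13.2 in IFNAMO1 ctrl, 10.6 in AMO1 P19 OE and 18.9 in AMO1 ctrl, and an interaction of 0.44. B cell genes had a median of -0.18 over 11 regions, of which 4 were above 0, and 0.07 without centring.

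IL6 and JAK/STAT3 genes had the highest median of the 21 lists, 0.26, with 15 of 17 above 0. Their PHF19 ratio was 0.20 with the prefix and -0.09 without. IL21R, a cytokine receptor, was highest at 0.59 (0.09 to 1.09), with 7.02 and 6.57 per M in the IFN-prefixed pair and 4.39 and 7.34 in the unprefixed pair. IL6ST, the shared signal transducer of the IL6 family, stood at 0.42 and the feedback inhibitors SOCS1 and SOCS2 at 0.39 and 0.50. PIM1, a kinase, was lowest at -0.07 (-0.46 to 0.31), with PHF19 ratios of -0.26 with the prefix and -0.18 without. In the interferon signalling list, STAT3 stood at 0.01 and SOCS3, another feedback inhibitor, at 0.17. The median of the list ranged from 0.15 to 0.26 over the 9 alternatives that keep centring, and was 0.51 without centring, which shifts all regions alike. The list stood highest in 7 of 10 alternatives, and stromal and epithelial markers in the other 3, among them the removal of height classes (0.24 against 0.15 for the IL6 list) and quantile normalization (0.24 against 0.15). Housekeeping promoters, a background list, had a similar median of 0.21 with 30 of 35 above 0, and a median height of 10.6 per M beside 9.07 for the IL6 list.

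The remaining lists lay near the median of all gene ends. Myeloma oncogenes and suppressors stood at 0.19, AP-1 and immediate early genes at 0.14, proteasome and cereblon genes at 0.11, ribosomal proteins at 0.10, the unfolded protein response, the cell cycle and NF-kappaB at 0.09, and apoptosis regulators at 0.07. With height classes removed, the medians of the unfolded protein response, cell cycle, NF-kappaB and apoptosis lists were below 0, and after quantile normalization so was that of the proteasome list. Each of these lists had 0 members past 2-fold. TRAF2, an adaptor of the noncanonical NF-kappaB pathway often altered in myeloma, had the highest value of its lists at 0.71 (0.25 to 1.17), the start that CUL4A, a scaffold of the cereblon ubiquitin ligase, shares with PCID2 had 0.73 (0.29 to 1.17), and an end of BIK, a pro-apoptotic protein, had 0.75 (0.14 to 1.37). CDK6, a kinase of G1 phase, stood at -0.56 (-1.12 to -0.01). Tallest summits were up to 877 bp apart at CDK6 and up to 447 bp apart at TRAF2.

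**Figure D4:**
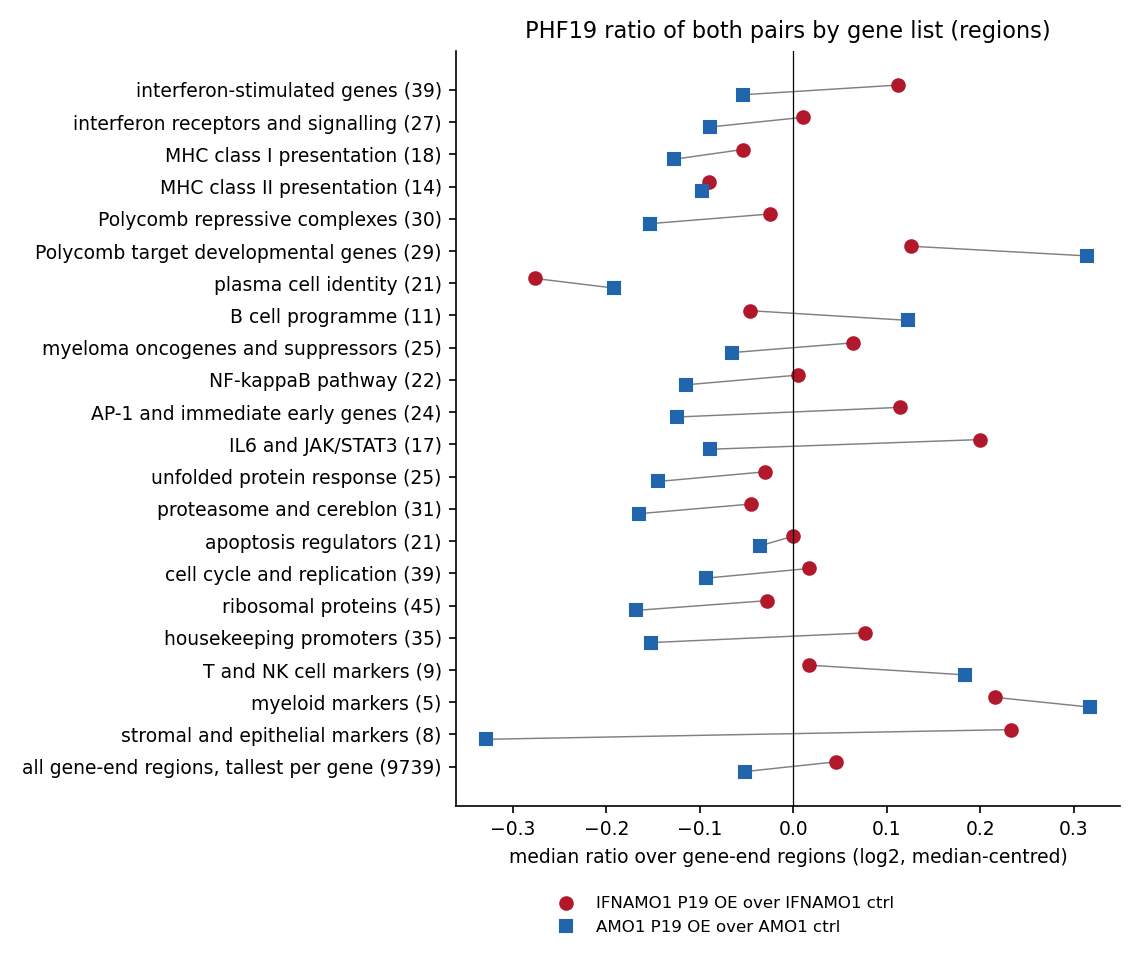
Median log2 height ratio of PHF19 over empty vector at the tallest gene-end region of each gene, for the IFN-prefixed pair (circles) and the unprefixed pair (squares), in 21 gene lists with their number of regions and over all gene ends. Polycomb targets, T and NK markers and myeloid markers are right of 0 in both pairs, 8 lists are left of 0 in both, among them plasma cell identity, ribosomal proteins and the proteasome, and the shift between pairs is 0.10 over all gene ends.

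Markers of other cell types were followed as a check. T and NK cell markers had a median interaction of -0.04 over 9 regions and myeloid markers 0.03 over 5, both with a sign that changed among the alternatives. Stromal and epithelial markers had 0.25 over 8 regions, and KRT18, a keratin, passed 2-fold (background 0.205%) at 1.17 (0.21 to 2.15), with 2.44, 1.38, 1.21 and 1.83 per M. Of the defining markers, those of T and NK cells with a shared peak (CD3E and NCAM1) summed to 16.7 per M in IFNAMO1 P19 OE, 14.3 in IFNAMO1 ctrl, 17.6 in AMO1 P19 OE and 15.3 in AMO1 ctrl. NCAM1 is also in the plasma cell identity list, so this sum is not particular to T and NK cells. SPI1, the myeloid factor, had 1.22, 3.03, 1.04 and 3.40 per M, lower with PHF19 in both pairs. Summed heights of the stromal and epithelial set were 20.03 per M in IFNAMO1 P19 OE, 14.9 in IFNAMO1 ctrl, 15.1 in AMO1 P19 OE and 17.0 in AMO1 ctrl. The part of other cells in any result was not tested.

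The median interaction of large domains mostly stayed near 0. Of 506 bins of 5 Mb with at least 20 regions, 0 had a median interaction above 0.3 and 2 had one below -0.3. Both lay on chromosome 7, at 110 to 115 Mb (-0.39 over 27 regions) and at 50 to 55 Mb (-0.36 over 33 regions). The next lowest was chromosome 1 at 60 to 65 Mb (-0.27), and the highest were chromosome 13 at 70 to 75 Mb (0.21), chromosome 2 at 80 to 85 Mb (0.16) and chromosome 4 at 125 to 130 Mb (0.15). In the bin of chromosome 2 both pairs stood high, at 0.56 with the prefix and 0.52 without. Bin medians of the pairs had a Pearson correlation of 0.90 over 506 bins, which share libraries. Departing regions were counted per bin as well. The bin richest in lower departures was chromosome 10 at 125 to 130 Mb, with 4 of 29 regions (13.8%, beside 2.54% of all regions), and 101 of 506 bins held none. For higher departures it was chromosome 2 at 80 to 85 Mb, with 2 of 22 (9.09%, beside 0.81%), and 304 bins held none. Of the lower departures, 8.14% had an adjacent shared region that was also 2-fold lower, beside 4.99% of all regions, and of the higher ones 3.55% beside 1.62%, with no test of either difference. Whole chromosomes ranged from -0.06 on chromosome 18 to 0.07 on chromosome 19.

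The tallest regions leaned one way. Of the 50 tallest, 49 had an interaction above 0, beside 49.7% of all shared regions. Their median was 0.23, from 0.35 in the IFN-prefixed pair and 0.15 in the unprefixed pair. The median of height class 10, which holds them, was itself 0.13. SDC1, with the highest interaction of the 50, stood at -0.01 after quantile normalization, and the 50 were not recounted under the alternatives. They were not spread over the genome, since 15 lay on chromosome 2 at 9 to 21 Mb, the arm that holds SDC1, 7 in a stretch of chromosome 11 and 5 in a stretch of chromosome 1. Neighbours in such stretches are not independent.

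Promoter sequence moved weakly with the interaction. Each of the 8500 gene-start regions was given the 300 bases around its nearest RefSeq start. Over 5 classes of GC percent the median interaction was 0.06, 0.08, 0.11, 0.12 and 0.11, and over 5 classes of CG count 0.04, 0.09, 0.10, 0.14 and 0.12. In the 5 GC classes the PHF19 ratio was -0.03, -0.01, 0.02, 0.07 and 0.10 in the IFN-prefixed pair, against -0.09, -0.10, -0.08, -0.06 and -0.004 in the unprefixed pair. Spearman correlations with the interaction were 0.10 for GC percent, 0.12 for CG count and 0.21 for height over the 8500 regions, of which neighbours share sequence and all share libraries. Promoters past 2-fold had fewer CG dinucleotides, with a median of 15 in the 11 higher and 17.5 in the 26 lower, beside 28 overall. All of them lay in height classes 1 to 7. The lowest CG class also had a median height of 5.78 per M, beside 8.18 in the middle class. Departing promoters were not compared with others of like height.

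Motifs were searched on both strands of the same promoters. The interferon response motif, GAAA and GAAA with any 2 bases between, was in 2.81% of promoters with a shared region and 3.19% of all 20760 promoters, and the median interaction was 0.08 with it and 0.10 without. TTCNNNGAA, the STAT core, was in 5.87% and 6.90%, with a median of 0.08 against 0.10. The GC box GGGCGG was in 75.2% and 57.0%, with 0.11 against 0.07. TGANTCA of AP-1 (3.76% and 6.09%), CCAAT (37.4% and 34.5%), CACGTG of E-box factors (10.6% and 8.26%) and CCGGAAG of ETS factors (20.4% and 13.0%) had medians of 0.10, 0.09, 0.09 and 0.11. GGGCGG and CCGGAAG can share bases with CG-rich sequence. Of the promoters shown, RGS10, SDC1, GNG10 and XPNPEP1 held GGGCGG, CCDC117 held CCGGAAG, HOXA10 held CCAAT, and GJC3 held none of the 7 motifs in its 250 bases.

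Peak width, which the contrast did not use, was compared as well. The interaction of peak width had a median of -0.15 in the higher departures and -0.67 in the lower ones, beside -0.23 over all shared regions. The width interaction of the lower departures was thus below that of all regions, and the median over all regions was itself below 0. Median widths were 790 bp in IFNAMO1 P19 OE, 1072 bp in IFNAMO1 ctrl, the deepest library, 798 bp in AMO1 P19 OE and 895 bp in AMO1 ctrl, and the part of depth in them was not tested. The fold enrichment that the authors gave for each peak had a median interaction of 0.98 in the higher and -0.94 in the lower departures, a ratio that shares its pileup with the height. Departing regions lay 33086.5 bp (higher) and 28354.5 bp (lower) from a gene end at the median, beside 10539 bp over all shared regions.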

How the data were processed

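ATAC-seq of the AMO1 line gave 4 libraries in 4 groups of 1. The tools named are bcl2fastq 2.17, Trimmomatic 0.38, MACS2 2.1.2 and DiffBind, and the build is hg38, per the submitters' processing notes. For the aligner, the read filters and any Tn5 shift, the sources used here give nothing. Peaks were called on each library alone, without control, keeping duplicates, at a q limit of 0.01, per the file headers. The deposited pileup is a signal, the fragments over each summit, unscaled. The deposited −log10 p and q values and the deposited fold enrichment, a ratio, compare it with the local background of the same library.

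Peaks overlapping by at least 1 bp were merged over chromosomes 1 to 22 (Python 3.11.15, pandas 2.3.3, checked with bedtools 2.31.1). Height was the largest pileup per 1000000 (M) fragments in the header (16.4 to 65.9 M). Named regions carry an exact conditional 95% interval of the interaction, and pairs an exact binomial one, while the share of all regions with an interval beyond 0 uses the normal approximation to counting error. These cover counting error only, since duplicates were kept and no replicate exists, so no test was made. The limit for a departure was 2-fold. Gene ends (18495 protein-coding genes, window 1000 bp) and starts (20760 promoters of 14749 genes) came from RefSeq GRCh38.p14, and starts on chromosome 8 were not used here.

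Regions were named by the near bound of a normal-approximation interval among those with at least 20 fragments in every library (12 gene-end and 6 other regions per direction), list members as the highest and lowest or up to 2 past 2-fold, and bins as the 3 highest and lowest. One of the 12 higher gene-end regions is not reported here. IRF4, IL6ST, SOCS1, SOCS2, SOCS3, STAT3, SPI1 and the genes of Polycomb repressive complex 2 were named after their values were seen. The members and the gene lists were chosen with earlier results of these data known. Alternatives changed the centring, scaling, filters and height measure. The scripts were tested on simulated data.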

Additional observations from a re-analysis of the deposited data

Results flagged for a closer look

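In 9 named regions the PHF19 ratio of the IFN-prefixed pair and that of the unprefixed pair had counting intervals beyond 0 on opposite sides. These regions were named for an interaction far from 0 or as the highest of a list. That choice favours opposite ratios, so they are no separate evidence. Opposite intervals occurred in 61 of 34809 shared regions (0.175%) and in 36 of 10484 gene-end regions (0.343%). With 1 library per group the difference was not tested, and the intervals cover counting error only. The interaction (log2) was positive at PPP2R5C (0.89), TJAP1 (0.89), COX4I1 and EMC8 (0.78), inside ASAP2 (1.63), inside CIMAP1D (1.05), at CUL4A (0.73) and at CRELD2 (0.59), a secretory pathway gene. It was negative at GNG10 (-1.002) and OTUD7A (-0.99).

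The comparison leaves out regions with a peak in only some libraries. The tallest of those missing from 1 library were sought, by the lowest height among the other 3. A region inside DIXDC1, with no peak listed in AMO1 ctrl, reached at least 12.002 per M in the others. It lies in the stretch of chromosome 11 that held 7 of the 50 tallest regions. One inside MEF2D, with none listed in AMO1 P19 OE, reached 6.66 per M, and one 3767 bp from SPAG4, with none listed in IFNAMO1 P19 OE, 6.04 per M. For IFNAMO1 ctrl, the deepest library, the tallest such region lay at RTN4RL1 and reached 1.39 per M.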

How the results depend on the processing

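No paired analysis was possible because each group has 1 library and the labels carry no replicate numbers, and for the same reason no replicate could be left out. As reported, 282 regions were higher and 884 lower, the spread was 0.364, 25 gene ends were higher and 57 lower, and 2 bins passed 0.3. Without centring the counts were 819 and 332 regions, 91 and 26 gene ends and 102 bins. With the local median removed the spread was 0.357 and 0 bins passed. With height classes removed there were 478 and 546 regions, a spread of 0.345, 42 higher gene ends and 1 bin. Quantile normalization gave 527 higher regions, a spread of 0.352, 41 higher gene ends and 1 bin, and SDC1 turned to -0.012. At least 20 fragments in every library, with the ratios centred again, left 48 and 250 regions, a spread of 0.316, 10 and 21 gene ends and 1 bin. Summits within 150 bp left 185 higher regions, a spread of 0.354 and 1 bin. Fold enrichment as height gave 154 and 414 regions, a spread of 0.289, 26 lower gene ends and 0 bins. A q of at most 1e-05 left 130 and 555 regions, a spread of 0.344, 15 higher gene ends and 1 bin. Filters and centring change the regions counted or the zero point by construction. For the others the cause was not tested. Values of named regions stayed within their counting interval in 708 of 714 cases, and list medians within their rank interval in 182 of 210. Filters on fragments, intervals, overlap and summits keep the heights of a named region and move only the centre. Those cases could hardly leave the interval, so the count does not measure robustness. With fold enrichment as height, 72 named regions stayed within their interval and 2, CCDC117 and SDC1, did not. Pileups of 8 to 16 fragments at the weakest peaks limit what the lowest regions can show.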

Other observations

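Outside the 34809 shared regions, most regions had a peak in the deepest library, IFNAMO1 ctrl. It alone had a peak in 15576 regions (21.7% of 71853), beside 1501 for IFNAMO1 P19 OE alone, 1008 for AMO1 P19 OE alone and 858 for AMO1 ctrl alone. Of regions with peaks in 3 libraries, 2970 lacked one in AMO1 P19 OE, 2482 in IFNAMO1 P19 OE, 1906 in AMO1 ctrl and 32 in IFNAMO1 ctrl. Regions shared by the crossed pair of IFNAMO1 P19 OE and AMO1 ctrl numbered 48, while the other crossed pair, IFNAMO1 ctrl and AMO1 P19 OE, shared 1694. The PHF19 libraries alone shared 420 regions, the narrow one in PHF19 among them.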
